A study of Mus musculus with 8 samples.

Results

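Transcripts of 10 transcription factor genes that form the core regulatory group of blood stem cells were examined in mouse bone marrow multipotent progenitors (MPPs) that express the NUP98-HOXA10hd fusion (NA) and in wild-type (WT) MPPs. The genes were chosen by name, for their known roles, but with earlier results of these data known. They were Gata2, Tal1, Lyl1 and Lmo2, Runx1 and Cbfb, Erg and Fli1, and Gfi1 and Gfi1b. They are 10 of the 37980 gene rows measured, and all 10 passed the filter on low values described below. NUP98-HOXA10hd joins a part of the nucleoporin NUP98 to the homeodomain of HOXA10, and the comparison addresses which of these regulators differ in amount of transcript when MPPs carry the fusion.

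Both groups were C57BL/6 mice. NA mice carried 1 NA LSL allele at Rosa26 and Vav-Cre, which removes a stop cassette in blood cells from the stem cell onwards, so the fusion was present before the MPP stage and in other blood cells too. The WT donors were not stated to carry Cre. Cells of both groups were sorted as Lin-CD48-ckit+Sca1+CD135+CD150-, and the cDNA of 1000 sorted cells per library was amplified before sequencing. There were 4 NA libraries (NA1 to NA4) and 4 WT libraries (WT1 to WT4). The labels name neither the animals behind each library nor their ages, and nothing states that aliquots came from separate mice. The p-values therefore measure the spread between libraries, which may be technical.

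These factors bind together at many enhancers of blood stem and progenitor cells. GATA2 and the basic helix-loop-helix proteins TAL1 (SCL) and LYL1 bind DNA and are held in one complex by the bridging protein LMO2, which does not bind DNA itself. RUNX1 binds DNA with its non-DNA-binding partner CBFB, ERG and FLI1 are related ETS factors, and GFI1 and GFI1B are related zinc-finger repressors that recruit the demethylase LSD1 (Kdm1a).

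Values are normalised counts, that is, estimated reads divided by 1 factor per library. A change is the difference of the group means of log2(normalised count + 1), NA minus WT, so that 1 stands for a doubling, and the added 1 understates changes of genes with low counts. It was tested with limma over all 11451 genes that reached 10 or more normalised counts in 4 or more libraries, and p-values were adjusted by the Benjamini-Hochberg method over all of them, with a threshold of 0.05.

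Of the 10 core factors, 5 were higher in NA MPPs (Lmo2, Fli1, Gfi1, Cbfb and Gata2), none was lower, and Tal1, Erg, Runx1, Lyl1 and Gfi1b did not pass the test. Over all genes tested, 17.9% passed the test, 10.1% as higher and 7.87% as lower in NA. Only Lmo2, Fli1 and Gfi1 passed without NA2, without NA4 or without the fourth library of both groups, and the 2053 genes called over all fell to 1125 without NA4, 1279 without WT4 and 524 without both. The same 5 factors were the members whose NA and WT values did not overlap, a pattern that 22% of all genes showed in either direction. The median change of the 10 was 0.28 on the log2 scale, beside -0.01 over all genes. All 10 genes lie on autosomes. Each of the 5 higher factors belongs to a different kind of regulator: a bridging protein, an ETS factor, a repressor, a RUNX partner and a GATA factor.

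**Figure D1:**
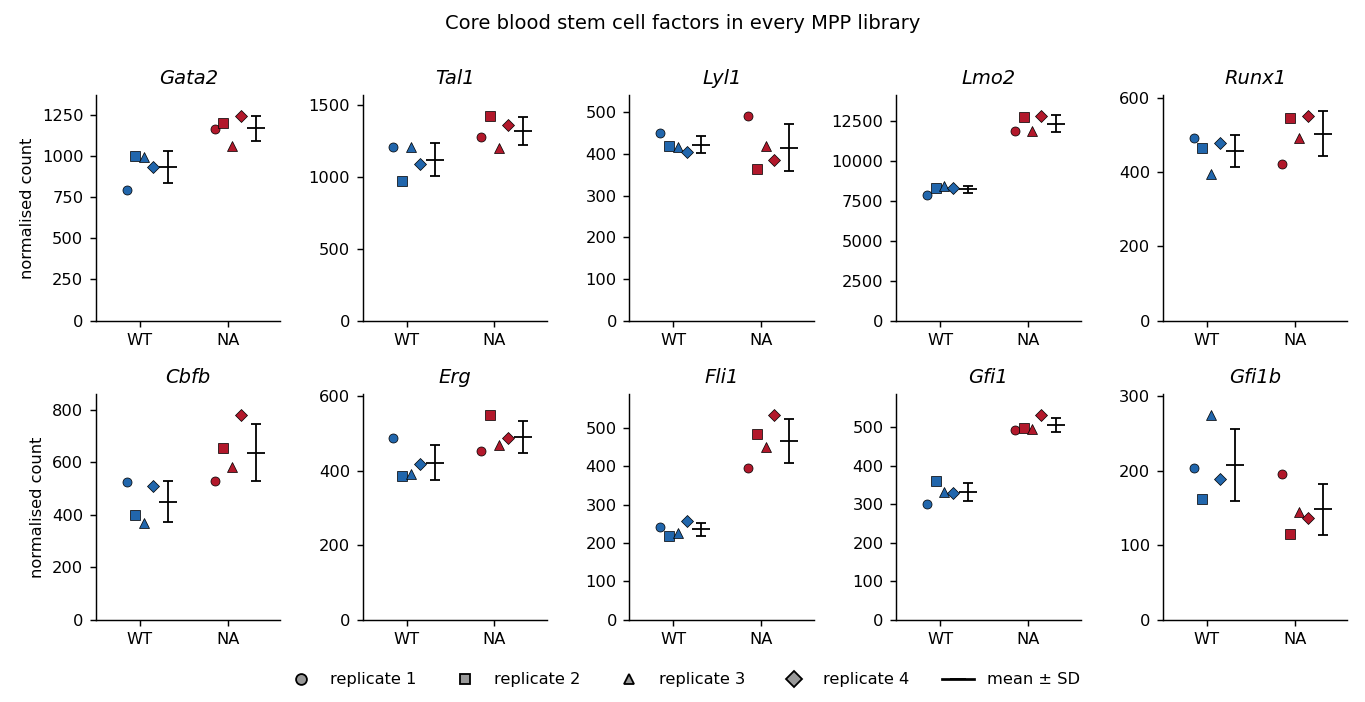
Normalised counts of the 10 core factors (vertical axes, each from 0 and each with its own scale) in the 4 WT (blue) and 4 NA (red) MPP libraries; the symbol gives the library number and bars give the mean ± SD. Lmo2, Fli1, Gfi1, Cbfb and Gata2 show no overlap between groups, and Cbfb only just so (lowest NA value 527, highest WT value 523).

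The libraries had features that touch every value above. Estimated depth ran from 3876893 to 4916987 reads and fell into 2 classes, with NA4, WT2 and WT3 the shallower 3, so depth class crossed the genotypes. NA4 lay inside the range of the other 3 NA libraries at 67.7% of genes and WT4 inside that of the other 3 WT libraries at 75.2%, against 38.1% to 50.2% for the other 6 (the mean over 4 libraries is 50% by construction). NA4 and WT4 thus stood close to the average of their groups, and calls are given with and without them. Hoxa10, part of which forms the fusion, had 324 ± 32.0 normalised counts (SD, n = 4) in NA and 139 ± 8.0 (SD, n = 4) in WT, and whether fusion reads were counted there is not given. Xist reached 869 to 1285 normalised counts in WT and at most 2.80 in NA, while the Y-linked Ddx3y had 281 to 668 in NA and at most 0.888 in WT. Donor sex and genotype thus cannot be told apart in any of these comparisons. Of 7 genes of the sort and related surface markers, Kit, Flt3, Cd34, Ptprc and Slamf1 did not pass the test. Over all genes tested, 7.87% were lower and 22% did not overlap. The other 2 of the 7 (28.6%) were lower in NA with no overlap. These were Ly6a, which encodes Sca1 (1277 ± 88.5 normalised counts in NA and 1548 ± 63.3 in WT, SD, n = 4, log2 change -0.28, limma adjusted p = 0.0257), and Cd48, whose protein the sort excluded (17.7 ± 5.36 and 56.1 ± 21.3, SD, n = 4, log2 change -1.58, limma adjusted p = 0.00712). Their part in the changes of the core factors was not tested.

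In the GATA, SCL and LMO2 group, Lmo2 rose most clearly. Lmo2 (ENSMUSG00000032698, GRCm38 chromosome 2, 103957986 to 103981878, plus strand) encodes the LIM-domain bridge of the complex. It had 11866, 12751, 11904 and 12847 normalised counts in NA1 to NA4, and 7899, 8284, 8450 and 8287 in WT1 to WT4. Every NA library lay far above every WT library. The means were 12342 ± 529 (SD, n = 4) and 8230 ± 234 (SD, n = 4), a ratio of 1.5, and the change was 0.58 (SE 0.06, 95% confidence interval 0.45 to 0.72, limma adjusted p = 4.52e-05). Among the members it had the smallest relative spread in WT, with a coefficient of variation of 2.84%. Without the fourth library of both groups the change was 0.57 and still passed (limma adjusted p = 0.000893).

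Gata2 (ENSMUSG00000015053, chromosome 6, 88193891 to 88207032, plus strand), the GATA factor of stem and early progenitor cells, was also higher, by less. The NA values were 1161, 1198, 1061 and 1244 normalised counts, and the WT values 794, 1001, 994 and 931. The groups did not overlap, but WT1 stood below the other 3 WT libraries. The means were 1166 ± 77.8 (SD, n = 4) and 930 ± 96.1 (SD, n = 4), with a change of 0.33 (SE 0.09, 95% confidence interval 0.13 to 0.53, limma adjusted p = 0.0275). The call was lost without NA2, NA4, WT1 or WT4 (limma adjusted p from 0.0663 to 0.0884) and without the fourth library of both groups (change 0.30, limma adjusted p = 0.192).

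Tal1 (ENSMUSG00000028717, chromosome 4, 115056426 to 115071755, plus strand), the helix-loop-helix partner of GATA2 in the complex, did not pass. It had 1282, 1428, 1205 and 1363 normalised counts in NA and 1212, 969, 1211 and 1088 in WT. The groups overlapped only where NA3 lay under WT1 and WT3. The change was 0.24 (SE 0.09, 95% confidence interval 0.04 to 0.44, limma adjusted p = 0.092), and it passed once the trend of the values on transcript GC content was removed per library (0.32, limma adjusted p = 0.0424).

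Lyl1 (ENSMUSG00000034041, chromosome 8, 84701457 to 84704715, plus strand), the close relative of Tal1, had 492, 364, 419 and 385 normalised counts in NA and 450, 419, 417 and 404 in WT. NA1 was the highest and NA2 the lowest of all 8, so the NA libraries enclosed the WT values. The change was -0.03 (SE 0.11, 95% confidence interval -0.28 to 0.21, limma adjusted p = 0.866), an interval that leaves room for changes of either sign. Its direction was not stable, with 0.20 after the GC trend was removed and 0.03 without NA2. In the annotation Lyl1 overlaps Nfix on the opposite strand, and Nfix had 225 ± 21.9 normalised counts (SD, n = 4) in NA and 132 ± 27.1 (SD, n = 4) in WT. Whether the counting used strand is not given in the sources used here, so reads from the stretch that these genes share cannot be told apart.

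The RUNX pair differed in that only the cofactor passed the test. Runx1 (ENSMUSG00000022952, chromosome 16, 92601466 to 92826149, minus strand), the DNA-binding subunit needed for the first blood stem cells to form, had 422, 547, 493 and 553 normalised counts in NA and 494, 465, 396 and 479 in WT. NA1 lay under 3 of the 4 WT libraries. The change was 0.13 (SE 0.12, 95% confidence interval -0.11 to 0.38, limma adjusted p = 0.457). Runx1 overlaps the opposite-strand gene Gm26626, which was not matched to a row here.

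Cbfb (ENSMUSG00000031885, chromosome 8, 105170674 to 105217989, plus strand), which encodes the partner that strengthens DNA binding by RUNX proteins, had 527, 655, 583 and 781 normalised counts in NA and 523, 400, 368 and 508 in WT. The lowest NA value was only just above the highest WT value, and the spread was wide, with a coefficient of variation of 17.2% in both groups. The means were 636 ± 109 (SD, n = 4) and 450 ± 77.3 (SD, n = 4), and the change was 0.50 (SE 0.14, 95% confidence interval 0.20 to 0.81, limma adjusted p = 0.0259). The call was lost without NA2, NA4, WT2 or WT3 (limma adjusted p from 0.0628 to 0.099), without the fourth library of both groups (change 0.46, limma adjusted p = 0.12), and when the GC trend was removed (0.36, limma adjusted p = 0.058). Its longest transcript had the lowest GC content of the 10, at 42.5%.

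Fli1 showed the largest change of the 10 core factors. Fli1 (ENSMUSG00000016087, chromosome 9, 32422204 to 32542861, minus strand), an ETS activator of stem cell, megakaryocyte and endothelial genes, had 397, 484, 450 and 535 normalised counts in NA and 241, 220, 225 and 257 in WT. Every NA library lay well above every WT library. The means were 466 ± 58.2 (SD, n = 4) and 236 ± 16.6 (SD, n = 4), a ratio of 1.98, with a change of 0.98 (SE 0.12, 95% confidence interval 0.72 to 1.23, limma adjusted p = 0.000108). It passed without the fourth library of both groups as well (0.95, limma adjusted p = 0.00371).

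Fli1 is also used by megakaryocytes and endothelial cells, so their markers are given beside it. The 7 megakaryocyte markers summed to 215 to 302 normalised counts in NA and 220 to 293 in WT, ranges that overlapped almost wholly. Of 5 endothelial and stromal markers, Cdh5 was at 0 in all 8 libraries, and their sum was 8.46 to 123 in NA and 18.2 to 28.4 in WT. The highest sum was that of NA3, mostly from the stromal gene Cxcl12 (101 normalised counts there, 0 to 28.3 in the other NA libraries). The endothelial gene Kdr had 6.40 ± 3.43 in NA and 11.9 ± 8.07 in WT (SD, n = 4).

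Erg (ENSMUSG00000040732, chromosome 16, 95359169 to 95586593, minus strand), the ETS factor needed to maintain adult stem cells, had a smaller change that did not pass. It had 453, 551, 470 and 489 normalised counts in NA and 489, 387, 392 and 419 in WT. WT1 was about as high as NA4 and above NA1 and NA3, so the groups overlapped. The change was 0.22 (SE 0.11, 95% confidence interval -0.02 to 0.46, limma adjusted p = 0.182).

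Of the GFI repressors, Gfi1 rose, while Gfi1b had a lower mean in NA that did not pass the test. Gfi1 (ENSMUSG00000029275, chromosome 5, 107716657 to 107726036, minus strand), which restrains stem cell division and directs granulocyte and lymphoid fates, had 494, 497, 497 and 533 normalised counts in NA and 302, 360, 332 and 330 in WT. The NA values were tightly grouped and all above WT. The means were 505 ± 18.4 (SD, n = 4) and 331 ± 23.8 (SD, n = 4), a ratio of 1.52, and the change was 0.61 (SE 0.10, 95% confidence interval 0.40 to 0.82, limma adjusted p = 0.00102). It passed without the fourth library of both groups (0.58, limma adjusted p = 0.0325). The opposite-strand gene A430072P03Rik, which overlaps Gfi1, had at most 3.54 normalised counts in any library.

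Gfi1b (ENSMUSG00000026815, chromosome 2, 28609450 to 28621982, minus strand), the relative that acts mainly in stem cells, red cell precursors and megakaryocytes, rested on the fewest reads of the 10. It had 196, 116, 145 and 137 normalised counts in NA and 204, 162, 276 and 189 in WT. NA1 lay within the WT range, and the other 3 NA libraries lay under all 4 WT libraries. The means were 148 ± 34.1 (SD, n = 4) and 208 ± 48.5 (SD, n = 4), with a change of -0.48 (SE 0.19, 95% confidence interval -0.89 to -0.07, limma adjusted p = 0.0979). Without NA1 it passed as lower (-0.62, limma adjusted p = 0.0341).

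Summed erythroid markers, which Gfi1b accompanies in red cell precursors, were lower in NA. The 8 erythroid markers summed to 35.4 to 64.9 normalised counts in NA and 147 to 296 in WT. Alas2 was at 0 in all 8 libraries, and 3 of the 8 markers were at or under 3 reads throughout. The globin gene Hbb-bt made up most of the erythroid sum in every library, with 28.3 to 56.4 normalised counts in NA and 131 to 185 in WT. Of the 8 only Hbb-bt was tested, and it was lower in NA (log2 change -1.99, limma adjusted p = 6.79e-05). The lower sum is therefore mainly that of 1 transcript. The 8 granulocyte markers, of a lineage in which Gfi1 is active, summed to 1390 to 1709 in NA and 1754 to 2598 in WT. Most of that sum was Prtn3 (1523 ± 154 in NA and 2028 ± 292 in WT, SD, n = 4), and Elane was at 0 in all 8 libraries. In sorted bulk cells a smaller share of a cell type and less RNA per cell cannot be told apart, and the part of these cells in the Gfi1 and Gfi1b values was not tested.

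Gfi1 and Gfi1b repress their own and each other's genes through sites with an AATC core, so their promoter windows are shown, from RefSeq on GRCm38.p6. Each is the 250 bases before the first RefSeq start, 5′ to 3′ on the strand of the gene, with capitals marking matches to any of 5 motifs. The Gfi1 window is chr5:107725806-107726055 (minus strand) and the Gfi1b window chr2:28621983-28622232 (minus strand). The RefSeq start of Gfi1 lies inside the GENCODE gene range given above, which ends at 107726036. Most of the Gfi1 window therefore overlaps the gene as placed above. The window of Lyl1, chr8:84701207-84701456 (plus strand), is added because it held the most matches of any single window of a member.
Gfi1: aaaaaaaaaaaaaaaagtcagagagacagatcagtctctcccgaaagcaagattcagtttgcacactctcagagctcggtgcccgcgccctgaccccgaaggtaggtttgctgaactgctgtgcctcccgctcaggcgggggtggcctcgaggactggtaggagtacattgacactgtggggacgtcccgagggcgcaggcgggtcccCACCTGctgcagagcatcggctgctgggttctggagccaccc
Gfi1b: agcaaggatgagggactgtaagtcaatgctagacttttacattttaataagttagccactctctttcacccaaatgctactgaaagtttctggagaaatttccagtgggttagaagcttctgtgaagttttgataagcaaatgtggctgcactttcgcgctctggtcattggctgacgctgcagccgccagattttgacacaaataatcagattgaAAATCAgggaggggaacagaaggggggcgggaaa
Lyl1: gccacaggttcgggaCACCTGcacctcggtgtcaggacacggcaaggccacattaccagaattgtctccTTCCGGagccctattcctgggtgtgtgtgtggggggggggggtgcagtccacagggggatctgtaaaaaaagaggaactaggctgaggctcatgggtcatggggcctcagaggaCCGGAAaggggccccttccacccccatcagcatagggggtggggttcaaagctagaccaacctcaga

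The motifs were searched on both strands as AGATAA, 1 form of the letters that GATA factors bind, and CCGGAA for ETS factors. Other GATA forms were not searched, and TGATAA stands unmarked in the Gfi1b window. TGTGGT stood for RUNX proteins, and CAGNTG for the E-box of helix-loop-helix factors. AAATCA, which is longer than the AATC core, stood for the GFI repressors, and the core alone was not searched. The Gfi1b window held AAATCA from 34 to 29 bases before the start. The Gfi1 window held no AAATCA and 1 E-box from 42 to 37 bases before the start. The shorter AATC core, read on either strand, also stands unmarked in both windows. In Lyl1, ETS letters lay at 181 to 176 and at 67 to 62 bases before the start and an E-box at 235 to 230. None of these motif letters overlapped in the windows printed.

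RefSeq windows were given for 8 of the 10 members (not for Lmo2 and Fli1), 14 windows in all. AGATAA was in 2 of the 14, in Tal1 and Erg, beside 9.99% of all 32851 promoter windows of the same length. ETS letters were in 2 of the 14 (12% of all windows), the E-box in 4 (44.8%), the GFI letters in 1 (12.4%), and the RUNX letters (14%) in 0. These matches describe the letters in the windows and show no binding.

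**Figure D2:**
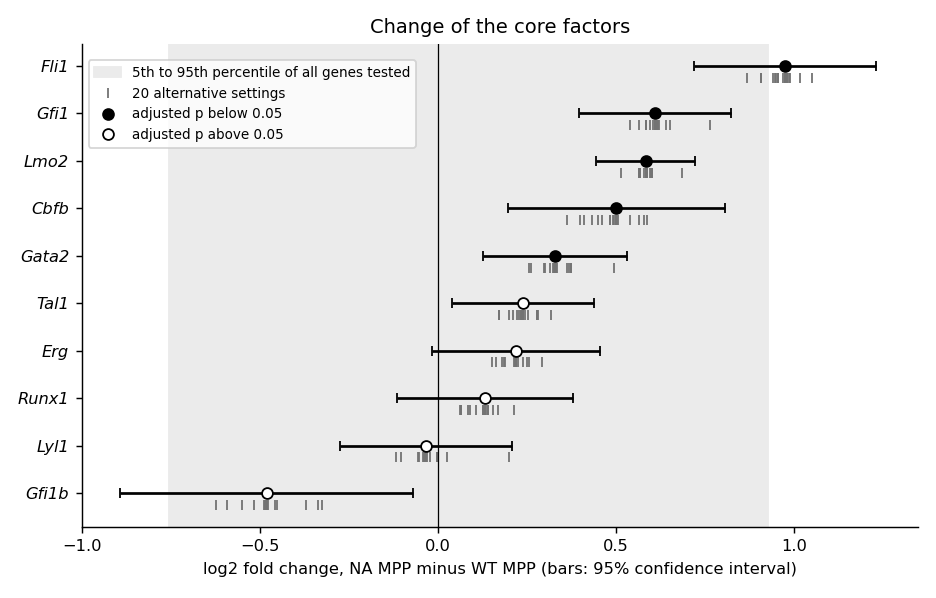
Log2 change of each core factor, NA minus WT MPP (horizontal axis), with its 95% confidence interval; filled points passed the test, ticks give the value in each of 20 alternative settings, and the grey band spans the 5th to 95th percentile of all genes tested. Fli1, at 0.98, is the only point outside the band (-0.76 to 0.93), and Lyl1 is the only factor whose ticks lie on both sides of 0.

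Members of a pair were then compared within each library, as the difference of their log2(normalised count + 1) values, which is unaffected by library scaling. The test was an exact permutation test, two-sided, over the 70 assignments of the labels. Its smallest possible p is 0.0286, and p-values were adjusted over the 5 pairs. Of these, 3 pairs passed and 2 did not. With this smallest p, a pair could pass after adjustment only if at least 3 of the 5 reached it, so the 3 calls depend on each other. Each of the 3 pairs also holds a member that was called by itself (Gfi1, Fli1 or Cbfb). All 3 calls were lost when NA2, NA4, WT1 or WT3 was left out, with exact permutation p adjusted over the 5 pairs of 0.0952 for Gfi1b/Gfi1 (unadjusted 0.0571) and 0.0714 for Erg/Fli1 and Runx1/Cbfb (unadjusted 0.0286, the smallest possible).

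The balance of Gfi1b to Gfi1 shifted most. The log2 ratio was -1.33, -2.10, -1.77 and -1.95 in NA1 to NA4 and -0.56, -1.15, -0.27 and -0.80 in WT1 to WT4, with no overlap. Gfi1b was lower relative to Gfi1 in NA, with a difference of -1.09 (NA -1.79 ± 0.33, WT -0.70 ± 0.37, SD, n = 4 each, exact permutation p = 0.0286, adjusted 0.0476). This compares the repressors directly, whereas the change of Gfi1b alone did not pass.

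The balance of Erg to Fli1 shifted towards Fli1 in NA. The log2 ratio was 0.19, 0.19, 0.06 and -0.13 in NA and 1.02, 0.82, 0.79 and 0.71 in WT, again with no overlap. The difference was -0.76 (NA 0.08 ± 0.15, WT 0.83 ± 0.13, SD, n = 4 each, exact permutation p = 0.0286, adjusted 0.0476).

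Runx1 was lower relative to Cbfb in NA, with a difference of -0.37 (NA -0.33 ± 0.12, WT 0.04 ± 0.15, SD, n = 4 each, exact permutation p = 0.0286, adjusted 0.0476), with ratios of -0.50 to -0.24 in NA and -0.09 to 0.22 in WT. The 3 shifts kept their sign and lay between -1.07 and -0.35 without the fourth libraries, where the smallest p the design allows is 0.1.

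The 2 helix-loop-helix and GATA pairs did not separate the groups. Tal1 to Lyl1 was 1.67 ± 0.27 in NA and 1.40 ± 0.14 in WT (SD, n = 4 each, difference 0.27, exact permutation p = 0.2, adjusted 0.25). Gata2 to Tal1 was -0.18 ± 0.05 in NA and -0.27 ± 0.27 in WT (SD, n = 4 each, difference 0.09, exact permutation p = 0.6, adjusted 0.6), and its sign turned to -0.02 without WT1.

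**Figure D3:**
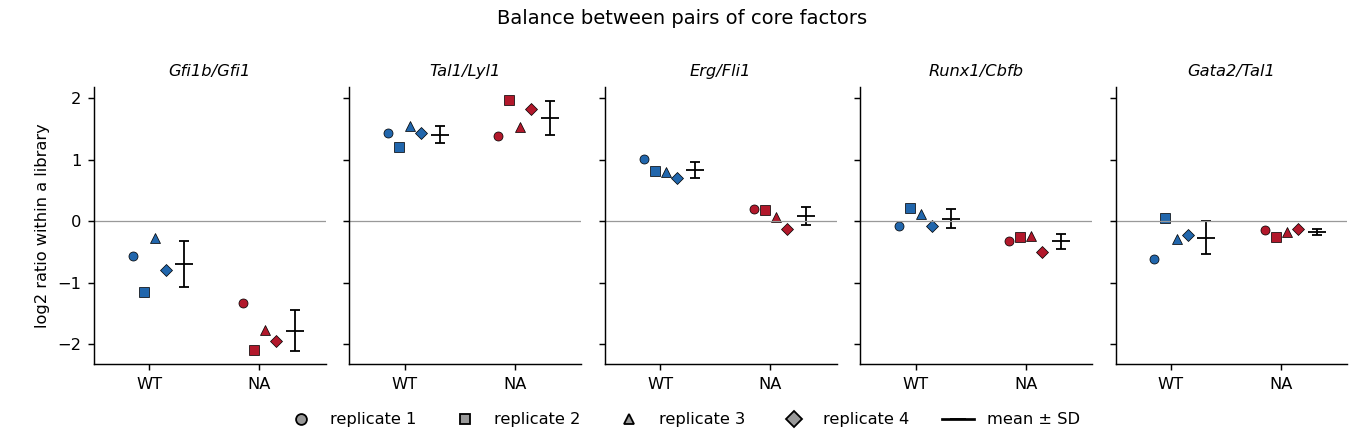
Log2 ratio of 2 core factors within each library (vertical axis), for 5 pairs, in WT (blue) and NA (red), with the mean ± SD. Gfi1b/Gfi1, Erg/Fli1 and Runx1/Cbfb show no overlap between groups, and Tal1/Lyl1 and Gata2/Tal1 overlap.

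To compare levels between genes, normalised counts were divided by the length of the longest coding transcript in kilobases. Lmo2 had by far the highest level of the 10, with 7234 ± 310 normalised counts per kilobase (SD, n = 4) in NA and 4824 ± 137 (SD, n = 4) in WT. In WT it was followed by Tal1 (266 ± 27.6), Gata2 (260 ± 26.9) and Lyl1 (235 ± 10.9), whose ranges overlapped from each to the next. Below a gap came Cbfb (156 ± 26.8), Erg (130 ± 14.5), Gfi1 (116 ± 8.33) and Gfi1b (114 ± 26.6), again overlapping from each to the next, and below another gap Runx1 (78.2 ± 7.35) and Fli1 (71.1 ± 5.02), which overlapped.

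Fli1 was thus last of the 10 in WT. In NA the order was Lmo2, Gata2 (327 ± 21.8), Tal1 (313 ± 23.0), Lyl1 (231 ± 31.2), Cbfb (220 ± 37.9), Gfi1 (177 ± 6.44), Erg (151 ± 13.2), Fli1 (141 ± 17.5), Runx1 (85.9 ± 10.4) and Gfi1b (81.5 ± 18.7). Neighbours in the NA order whose ranges did not overlap were Lmo2 and Gata2, Tal1 and Lyl1, Gfi1 and Erg, and Fli1 and Runx1. Gfi1b went from eighth to last and Fli1 from last to eighth. These ranks depend on the length used: with the union of all exons, Runx1 (12025 bases) was the lowest in both groups, at 41.9 ± 5.06 in NA and 38.1 ± 3.58 in WT, and Gata2 fell under Lyl1.

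**Figure D4:**
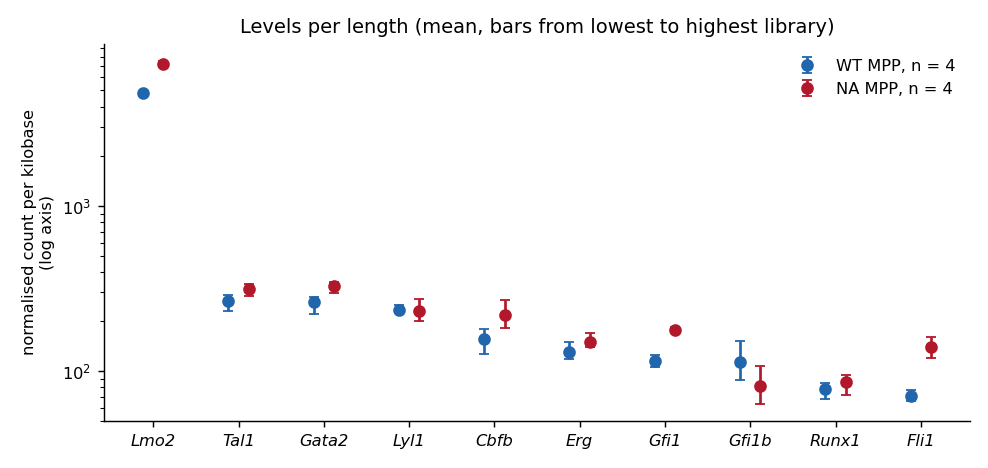
Level of each core factor in normalised counts per kilobase of the longest coding transcript (log axis) in WT (blue) and NA (red) MPPs; points are means of 4 libraries and bars run from the lowest to the highest library. Lmo2 stands above the other 9 in all 8 libraries, and Fli1 moves from the lowest mean in WT (71.1) to above Runx1 and Gfi1b in NA (141).

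The partners, relatives and known target genes of the core factors were taken from 6 lists of 69 different genes. Of these 68 were matched and 63 tested, and 14 were higher and 2 lower in NA, beside 10.1% and 7.87% of all genes. Their median change was 0.19. Without the fourth library of both groups 9 of the 16 passed, and 10 without NA4.

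Among 15 partners and relatives of the GATA, SCL and LMO2 complex, 13 were tested, with a median change of 0.15. None fell and 3 rose (23.1%, beside 10.1% of all genes). The 3 were Tcf3 and Tcf4, which encode the E proteins that pair with TAL1 and LYL1, and Cbfa2t3, which encodes the corepressor ETO2 of the complex. Tcf3 had 288, 236, 260 and 223 normalised counts in NA and 99.4, 174, 120 and 115 in WT (252 ± 28.4 and 127 ± 32.6, SD, n = 4), a change of 1.0 (limma adjusted p = 0.00156). Tcf4 had 755 ± 26.2 and 473 ± 31.1 (SD, n = 4), a change of 0.67 (limma adjusted p = 0.000226). In both genes every NA value was above every WT value.

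Cbfa2t3 rose by 0.39 (846 ± 86.3 and 648 ± 102, SD, n = 4, limma adjusted p = 0.033) with overlap between groups, and lost its call without the fourth libraries (limma adjusted p = 0.16). Ldb1, the dimerising partner of LMO2, had a change of -0.43 (limma adjusted p = 0.0717), and Ssbp4, whose relatives stabilise LDB1, -0.86 (limma adjusted p = 0.0501), so neither passed. These 2 were named after their values were seen. Gata1, the erythroid GATA factor, was at 3.69 to 9.33 normalised counts in NA and 0 to 18.2 in WT and was not tested, and Tal2 was listed at 0 in all 8 libraries.

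The RUNX relatives and cofactors held 10 tested genes, of which 4 rose (40%, beside 10.1% of all genes) and none fell. Their median change was 0.39. Crebbp, a histone acetyltransferase that RUNX1 recruits, rose most, from 45.3, 51.0, 25 and 41.7 normalised counts in WT to 93.3, 135, 102 and 148 in NA. Its change was 1.55 (120 ± 25.9 and 40.8 ± 11.1, SD, n = 4, limma adjusted p = 0.0011), at low counts. Runx3, the lymphoid relative of Runx1, rose by 0.76 (465 ± 30.9 and 273 ± 14.3, SD, n = 4, limma adjusted p = 0.000253). Kmt2a, the histone methyltransferase MLL1, rose by 0.63 (837 ± 40.6 and 544 ± 88.0, SD, n = 4, limma adjusted p = 0.00225). These 3 did not overlap between groups and passed without the fourth libraries.

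Runx2, the bone-forming relative, rose by 0.36 (1202 ± 118 and 939 ± 126, SD, n = 4, limma adjusted p = 0.032) with overlap, and lost its call without the fourth libraries (limma adjusted p = 0.164). Among the RUNX genes the DNA-binding subunit with the known stem cell role, Runx1, was the one that did not pass. Whether its change differed from those of Runx2 and Runx3 was not tested.

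Among 10 ETS relatives tested, 1 rose (10%, beside 10.1% of all genes) and none fell. It was Elf2, a widely expressed ETS activator, which rose by 0.36 (551 ± 58.6 and 428 ± 33.7, SD, n = 4, limma adjusted p = 0.0341). Elf2 lost its call without the fourth libraries (limma adjusted p = 0.261). The median change of the list was 0.11. Spi1, which encodes PU.1, had 128 to 184 normalised counts in NA and 137 to 232 in WT, and Etv6 had 1623 to 1794 and 1624 to 1935, with overlap in both.

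Of 12 corepressor subunits that GFI1 and GFI1B use, 2 rose (16.7%, beside 10.1% of all genes) and 1 fell (8.33%, beside 7.87%). Their median change was 0.02. Kdm1a, the demethylase that the GFI proteins bind through their SNAG domain, had 845, 817, 761 and 803 normalised counts in NA and 477, 607, 315 and 447 in WT. Its change was 0.84 (806 ± 35 and 462 ± 120, SD, n = 4, limma adjusted p = 0.00209), and the groups did not overlap. Rcor3, a member of the CoREST family, rose by 0.61 (240 ± 13.6 and 157 ± 14.9, SD, n = 4, limma adjusted p = 0.00567). Hdac1, a deacetylase of the complex, fell by 0.48 on the log2 scale (190 ± 34.7 and 265 ± 30.5, SD, n = 4, limma adjusted p = 0.0407), with overlap between the groups. Without the fourth libraries Kdm1a passed and Rcor3 (limma adjusted p = 0.0875) and Hdac1 (limma adjusted p = 0.197) did not.

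Of 13 genes known to be repressed by GFI1 or GFI1B, 11 were tested, with a median change of 0.68. None fell and 3 rose (27.3%, beside 10.1% of all genes). Gadd45a, a DNA damage response gene, rose most, from 15.1, 12.5, 31.9 and 22.2 normalised counts in WT to 137, 167, 138 and 168 in NA. Its change was 2.92 (152 ± 17.4 and 20.4 ± 8.68, SD, n = 4, limma adjusted p = 1.41e-05). Hoxa9, a homeobox gene that GFI1 opposes in myeloid cells, rose by 0.68 (2585 ± 235 and 1609 ± 83.7, SD, n = 4, limma adjusted p = 9.38e-05). In both genes every NA value was above every WT value, and both passed without the fourth libraries.

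Id2, an inhibitor of E proteins, rose (51.2 ± 3.13 and 23.8 ± 7.04, SD, n = 4, log2 change 1.1, limma adjusted p = 0.0174) and lost its call without the fourth libraries (limma adjusted p = 0.133). Meis1, a homeobox partner of HOXA9, had a change of -0.04 (limma adjusted p = 0.73). Cdkn1a, which encodes the cell cycle inhibitor p21, had 65.3 to 348 normalised counts in NA and 14.2 to 233 in WT, so its change of 1.27 did not pass (limma adjusted p = 0.186).

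Early response transcripts, a list that holds stress genes such as Fos and Egr1, moved with these groups and are measured beside them. The 8 summed to 37557 to 42574 normalised counts in NA and 4940 to 12479 in WT. Of the 8, 7 were higher, beside 10.1% of all genes. Their part in the changes of the core factors and of Gadd45a was not tested.

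Of 11 genes with well-known elements bound by the core factors, 10 were tested, with a median change of 0.045. Of the 10, 1 rose and 1 fell (10% each), close to the 10.1% and 7.87% of all genes. Myb, a regulator of progenitor division, rose by 0.49 (3170 ± 418 and 2241 ± 164, SD, n = 4, limma adjusted p = 0.00333). Eng, a TGF-beta co-receptor with enhancers that the ETS and SCL factors bind, fell by 0.42 on the log2 scale (375 ± 29.5 and 501 ± 52.4, SD, n = 4, limma adjusted p = 0.0185), with no overlap, and lost its call without the fourth libraries (limma adjusted p = 0.0934). Kit, Cd34, Hhex, Nfe2, Itga2b, Pf4, Spi1 and Meis1 did not pass. Of 7 long-term stem cell markers outside these lists, 2 (28.6%, beside 10.1% of all genes) were higher in NA. These were Hlf, by 0.93 (limma adjusted p = 1.86e-06), and Procr, by 0.42 (limma adjusted p = 0.00615). The other 5 did not pass, and the median change of the 7 was -0.04.

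**Figure D5:**
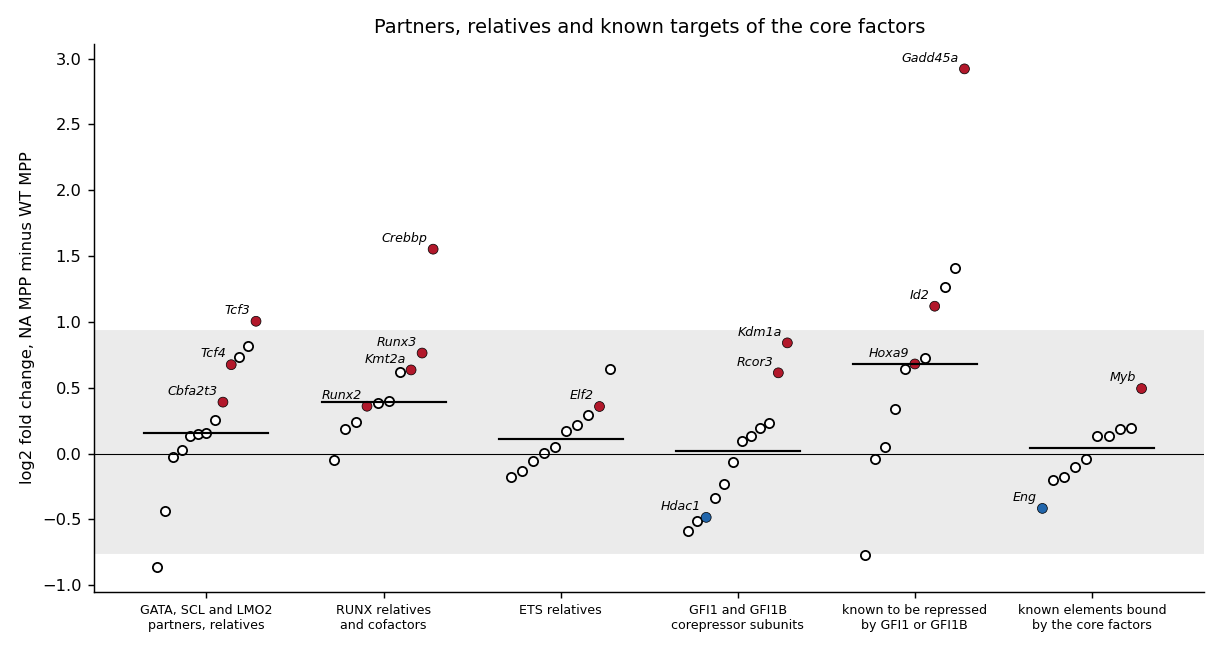
Log2 change, NA minus WT MPP (vertical axis), of the tested genes of 6 lists related to the core factors; red and blue points passed the test as higher and lower, open points did not, short lines give list medians, and the grey band spans the 5th to 95th percentile of all genes. Gadd45a, at 2.92, has the highest value, and the list medians run from 0.02 to 0.68.

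For the 3 members with the smallest adjusted p, the genes whose values ran most alike over the 8 libraries were found among 8869 tested genes with a mean normalised count of 50 or more. Since the 8 libraries form 2 groups, such a likeness mostly restates a shared group difference and is given as a description. For Lmo2 the nearest were Mpp6 and Zbtb14 (Pearson r = 0.994 for both), for Fli1 C1d (0.994) and Plek (0.993), and for Gfi1 Rest (0.995) and Rbm3 (0.994). All 6 were themselves higher in NA, from 0.71 for Zbtb14 to 3.73 for Rest. Rest, which encodes a repressor of neuronal genes, went from 64.1 ± 31.0 normalised counts (SD, n = 4) in WT to 795 ± 59.7 (SD, n = 4) in NA.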

How the data were processed

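Gene values of 4 NA and 4 WT MPP libraries were read from 1 table of 37980 Ensembl gene rows. The deposited values are a normalised signal: RSEM counts that the authors divided by 1 factor per library, although the table is labelled as raw counts. Per the submitters' processing notes, bcl2fastq, RSEM, DESeq2 and mm10 were used; versions, annotation and strand use are not given in the sources used here. Between 97.3% and 98.3% of values per library were whole multiples (within 0.01) of 1 value, which gave the estimated reads. Amplified cDNA without molecular identifiers limits their precision, which covers counting error only.

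GENCODE M21 (GRCm38) named 32916 rows, and unmatched rows held 0.779% of the values. Log2(value + 1) was tested with limma 3.58.1 (R 4.3.3, mean-variance trend, no covariates), Benjamini-Hochberg adjusted over all genes tested, on genes with at least 10 in at least 4 libraries. The script was tested on simulated data with 200 changed genes of 11451, where it recovered 13% of log2 changes of 0.5 and 60% of changes of 1. In the data 2053 genes were called, and the simulated rates pool genes of all levels. The rates therefore need not hold for the core factors. A gene that did not pass may still have changed. Groups came from sample titles. The 10 members and all lists were chosen with earlier results of these data known. Named genes were the members, up to 4 called genes per list by adjusted p, 2 genes most like each of 3 members, Hoxa10, Xist and Y-linked genes. A few genes of the related and marker lists are not reported here and were left out of the lists. Other list members were named after their values were seen. Alternatives changed the pseudocount, filter, scaling, trend, covariates, GC content and libraries. Marker lists of mast cells, monocytes, B cells, and T and NK cells were also summed, in normalised counts. The mast cell sum was 7.39 to 15.9 in NA and 1.14 to 19.5 in WT. The monocyte sum, mostly Lyz2, was 1659 to 1769 in NA and 1757 to 2030 in WT. The B cell sum, mostly Cd79b, was 101 to 239 and 182 to 269. The T and NK cell sum, mostly Nkg7, was 146 to 161 and 120 to 145.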

Additional observations from a re-analysis of the deposited data

Results flagged for a closer look

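In 1 of 30 groups of 4 values (each member and each pair ratio in each genotype), a library stood apart: Gfi1 in NA4 was 532.7 normalised counts, while the other NA libraries lay between 493.8 and 497.3. The gap was 0.911 of the group's range, above Dixon's 95% critical value for 4 samples. Chance flags about 1 group in 20, here 1.5 groups. Without NA4 the NA values of Gfi1 remained above all 4 WT values.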

How the results depend on the processing

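Lmo2, Fli1 and Gfi1 passed in all 20 alternatives, from 0.52 to 0.68, 0.87 to 1.05 and 0.54 to 0.76. The number of core factors called fell from 5 to 3 with no filter on low values, with scaling to equal totals, with no variance trend and without the fourth library of both groups, where Gata2 and Cbfb lost their calls, and ran from 3 to 6 when 1 library was left out. Cbfb was also lost with depth class as a covariate (limma adjusted p = 0.0502). Related genes called went from 16 to 9 without the fourth libraries and ran from 10 to 18 with 1 library left out. Of all genes, 2053 were called, 524 without the fourth libraries, and 1125 (without NA4) to 2176 with 1 library left out. Without WT4 the count was 1279. Scaling to equal totals moved the share of calls that were higher from 56.1% to 41.3%.

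Same-numbered libraries deviated together with r from 0.0131 to 0.158, and libraries of different numbers with r from -0.0943 to 0.101. The highest r was that of NA4 with WT4. The labels do not say whether replicate numbers pair the samples, and these small values do not settle it. The replicate block left 5 core factors and 16 related genes called. Under the block the pair differences were -1.09, -0.76 and -0.37 for Gfi1b/Gfi1, Erg/Fli1 and Runx1/Cbfb, but the exact sign-flip p cannot go under 0.125 (adjusted 0.208). Without the fourth libraries they were -1.07, -0.73 and -0.35 (exact permutation, adjusted p = 0.167). With 1 library left out they ran from -1.24 to -0.95, from -0.80 to -0.69 and from -0.41 to -0.31, and each of these 3 calls was lost in 4 of the 8 cases (adjusted p up to 0.0952, exact permutation). Gata2/Tal1 ran from -0.023 (without WT1, a reversal) to 0.195. Lyl1 reversed with the GC trend removed (0.20) and without NA2, with a range from -0.119 to 0.026 when 1 library was left out. Causes were not tested. TMM scaling was added after the data were seen, with its own code. The planned edgeR and DESeq2 alternatives were not run, because the values are not counts. With 4 libraries against 4, the intervals of Erg and Runx1 held 0 as well as changes up to 0.46 and 0.38.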
